A study of Mus musculus with 6 samples.

Results

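Transcripts of 8 hormone receptors were followed in mouse ovaries: the gonadotropin receptors Fshr and Lhcgr, the prolactin receptor Prlr, the estrogen receptors Esr1 and Esr2, the progesterone receptor Pgr, the membrane progesterone-binding protein Pgrmc1 and the glucocorticoid receptor Nr3c1. They were chosen by name and found by NCBI Gene ID, 8 of 45679 genes with a symbol in the files. The RNA came from ovarian tissue of wild type BDF1 mice, a hybrid strain, injected into the abdomen for 7 days. There were 3 groups with 2 libraries in each, as labelled: 65-week-old animals given MIT-001 at 0.5 mg/kg (old MIT-001), mice of 65 weeks given PBS (old PBS), and mice of 8 weeks given PBS (young PBS). MIT-001 is a compound that acts in mitochondria to remove reactive oxygen species, and PBS is the buffer given as its control. The study used 40 old and 20 young mice, but nothing ties animals to libraries or gives the number pooled, so the p-values rest on library-to-library spread alone.

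Follicle-stimulating hormone acts on granulosa cells through FSHR, and luteinizing hormone acts on theca cells, luteal cells and mature granulosa cells through LHCGR. Both receptors couple to the stimulatory G protein and raise cyclic AMP, which drives follicle growth, steroid synthesis and ovulation. Prolactin, which maintains the corpus luteum in rodents, signals through PRLR, JAK2 and STAT5. The steroid receptors are ligand-activated transcription factors: ESR2 is the main estrogen receptor of granulosa cells, ESR1 is found in theca, stroma and epithelium, PGR is induced in granulosa cells by the ovulatory surge, and NR3C1 is found in nearly all cells. PGRMC1 is a heme-binding membrane protein and no nuclear receptor.

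The age labels were checked with cell type genes before the receptors were read, and the values did not follow the labels in the direction known for ovarian age. Gdf9, a growth factor made by the oocyte, was at 22.8 and 9.35 TPM under the old MIT-001 label, 116 and 108 TPM under the old PBS label and 73.3 and 9.51 TPM under the young PBS label. TPM, the unit used throughout, corrects for gene length and library size and can be compared between genes. The groups are named as labelled, and every direction below holds for the libraries as labelled. The most common ratio of coverage to FPKM put the aligned sequence at an estimated 6.34 to 7.14 gigabases in each of the 6 libraries. Only 32.2% to 34.7% of the genes used shared that ratio in a library, so the depth is a rough estimate. No read counts were used, and precision is known only from the spread of 2 libraries. The 2 libraries labelled young PBS stood further apart than the other pairs, with a median absolute difference of 0.52 on the log2(TPM + 1) scale, against 0.24 for old MIT-001 and 0.23 for old PBS.

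The promoter windows of 3 receptors are shown because Fshr, Esr2 and Lhcgr had their highest values in the same 2 libraries, those labelled old PBS. Each window runs from 250 bases before to 50 bases after the gene start, from RefSeq on GRCm38.p6, written 5′ to 3′ on the gene's strand. For Lhcgr the start used lies inside the gene span given below and not at its end, 88792059. Capitals mark the E-box CACGTG in Fshr and Esr2, a sequence bound by USF factors, and the GC box GGGCGG in Lhcgr, a sequence bound by Sp factors. Fshr is at chr17:89200626-89200925 (minus strand), Esr2 at chr12:76177210-76177509 (minus strand) and Lhcgr at chr17:88791965-88792264 (minus strand).
Fshr: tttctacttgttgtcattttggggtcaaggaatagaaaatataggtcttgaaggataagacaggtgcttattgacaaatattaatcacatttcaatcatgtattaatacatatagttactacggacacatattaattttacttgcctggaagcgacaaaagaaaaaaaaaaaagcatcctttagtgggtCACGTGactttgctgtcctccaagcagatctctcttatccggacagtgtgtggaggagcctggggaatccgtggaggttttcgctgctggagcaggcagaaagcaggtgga
Esr2: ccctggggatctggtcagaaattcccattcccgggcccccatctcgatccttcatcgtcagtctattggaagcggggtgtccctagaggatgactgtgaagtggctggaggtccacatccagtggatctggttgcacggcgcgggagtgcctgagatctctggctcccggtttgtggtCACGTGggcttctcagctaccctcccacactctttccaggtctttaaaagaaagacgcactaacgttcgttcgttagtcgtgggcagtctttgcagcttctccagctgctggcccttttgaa
Lhcgr: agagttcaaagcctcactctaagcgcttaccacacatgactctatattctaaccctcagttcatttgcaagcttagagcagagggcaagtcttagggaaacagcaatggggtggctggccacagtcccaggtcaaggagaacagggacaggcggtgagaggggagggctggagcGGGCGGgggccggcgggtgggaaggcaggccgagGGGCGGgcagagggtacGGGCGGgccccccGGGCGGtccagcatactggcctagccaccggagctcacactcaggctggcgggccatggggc

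The Fshr and Esr2 windows each held 1 E-box, starting 61 and 72 bases before the gene start, and 7.15% of all 32851 promoter windows held one on either strand. The Lhcgr window held 4 GC boxes, and 35.7% of all windows held at least 1. Of the 10 windows RefSeq gives for 7 of the receptors, 2 held the E-box and 3 the GC box (those of Lhcgr, Pgr and Pgrmc1). The STAT site TTCNNNGAA was in 2 (1 window each of Prlr and Esr1), against 8.30% of all windows. The nuclear receptor motif AGGTCA was in 1 (Lhcgr), against 16.3% of all windows. The full estrogen response element and the cyclic AMP response element TGACGTCA had no match in these windows, against 0.0700% and 1.79% of all windows. Both strands were searched, and a match is a stretch of letters and not a shown binding site.

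Chromosome 17 holds both gonadotropin receptor genes on its minus strand, Fshr and Lhcgr, at 88984952 to 89200675 and 88716384 to 88792059 on mm10, with 192.9 kb between them. Esr2 spans 76120419 to 76177259 of chromosome 12 (minus strand) and Esr1 spans 4611989 to 5005633 of chromosome 10 (plus strand). Prlr lies at 10177238 to 10349190 of chromosome 15 and Pgr at 8898900 to 8968611 of chromosome 9, both on the plus strand. Pgrmc1 spans 36598193 to 36606079 of chromosome X (plus strand) and Nr3c1 spans 39410545 to 39519421 of chromosome 18 (minus strand). The pseudogene Gm7862 overlaps the span of Esr2 on the same strand, at 2.27 to 4.75 TPM. Whether it overlaps exons of Esr2, so that reads may be divided between them, was not examined.

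All 8 receptors passed the filter of at least 1 TPM in at least 2 libraries, and 16473 genes did so in all. Pgr passed it through 3 libraries, both labelled old MIT-001 and replicate 2 labelled old PBS. None of the 8 passed limma's test at an adjusted p of 0.05 in any of the 3 comparisons. Over all genes that test called 3 (0.0182%) for old MIT-001 against old PBS, 6 (0.0364%) for old PBS against young PBS (2 higher, 0.0121%, and 4 lower, 0.0243%), and 0 (0%) between old MIT-001 and young PBS. At an unadjusted p under 0.05, 5 of 8 receptors stood out for old MIT-001 against old PBS (11.8% of all genes): Esr1 and Nr3c1 were higher (7.45%) and Fshr, Lhcgr and Esr2 lower (4.36%). For old PBS against young PBS there were 3 of 8 (18.1% of all genes), Fshr, Lhcgr and Esr2, all higher (14.6%), with 0 lower (3.55%). For old MIT-001 against young PBS there were again 3 of 8 (17.9%), Esr1, Pgr and Nr3c1, all higher (17.1%), with 0 lower (0.813%). The share of higher genes among all genes at that p depended on the scaling. It was 63.1% for old MIT-001 against old PBS (45.6% after quantile normalization), 80.5% for old PBS against young PBS (36.2% after median centring) and 95.5% between old MIT-001 and young PBS (44.2% after median centring). Old MIT-001 against young PBS had 2954 such genes although none passed the adjusted threshold. The smallest adjusted p of limma's test there was 0.161, shared by many genes, Nr3c1 at rank 168 among them. An adjusted p of 0.161 in that comparison therefore singles out no gene.

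The libraries of the 2 groups did not overlap for 6 of 8 receptors between old MIT-001 and old PBS, where 51.4% of all genes did not overlap. Of these, Esr1, Pgr and Nr3c1 were higher in both libraries labelled old MIT-001, against 27.2% of all genes, and Fshr, Lhcgr and Esr2 were lower, against 24.2%. Between old PBS and young PBS, 7 of 8 did not overlap (49.1% of all genes): 6 were higher in the libraries labelled old PBS (38.1%), and Esr1 was lower (11%). Between old MIT-001 and young PBS, Esr1, Pgr, Pgrmc1 and Nr3c1 were higher without overlap, 4 of 8 receptors (43.8% of all genes in either direction, 37.3% higher), and none was lower (6.56%). These comparisons share libraries, so their values are not independent of each other. Over all genes the median log2 difference was 0.03, 0.23 and 0.24 in these 3 comparisons, and centring each library on its median moved it to -0.06, -0.09 and -0.17. Before centring, 53.5%, 68.1% and 69.3% of all genes had a positive fold change, and counts of directions below are to be read against these shares.

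**Figure D1:**
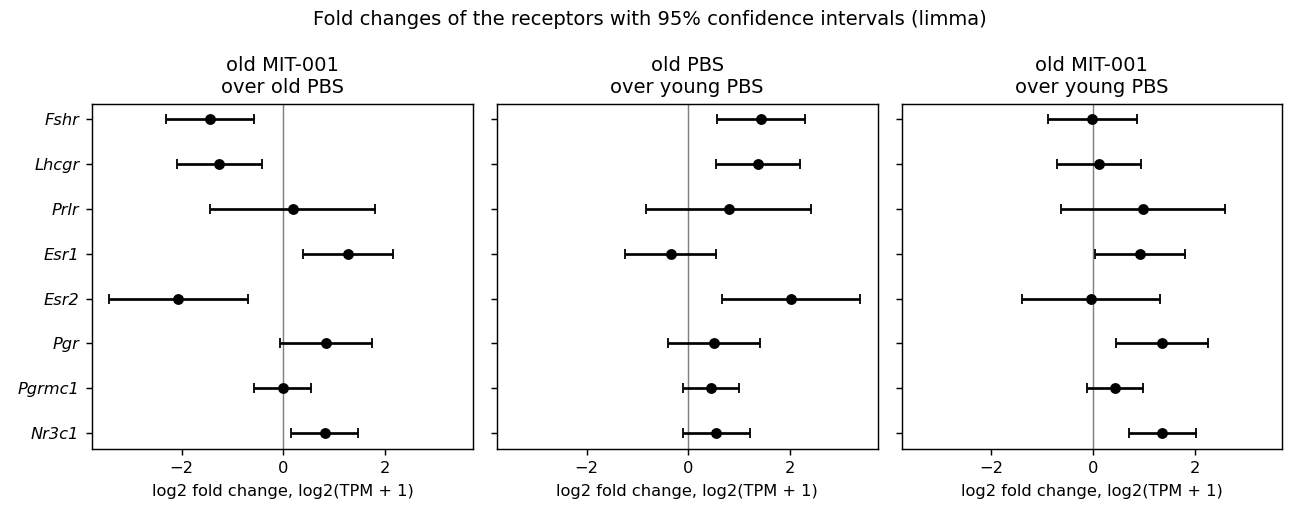
Log2 fold changes of the 8 receptors on the log2(TPM + 1) scale, with 95% confidence intervals from limma, in the 3 comparisons. For old MIT-001 over old PBS, the intervals of Fshr, Lhcgr and Esr2 lie below 0 and those of Esr1 and Nr3c1 above it. No receptor passed at an adjusted p of 0.05.

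**Figure D2:**
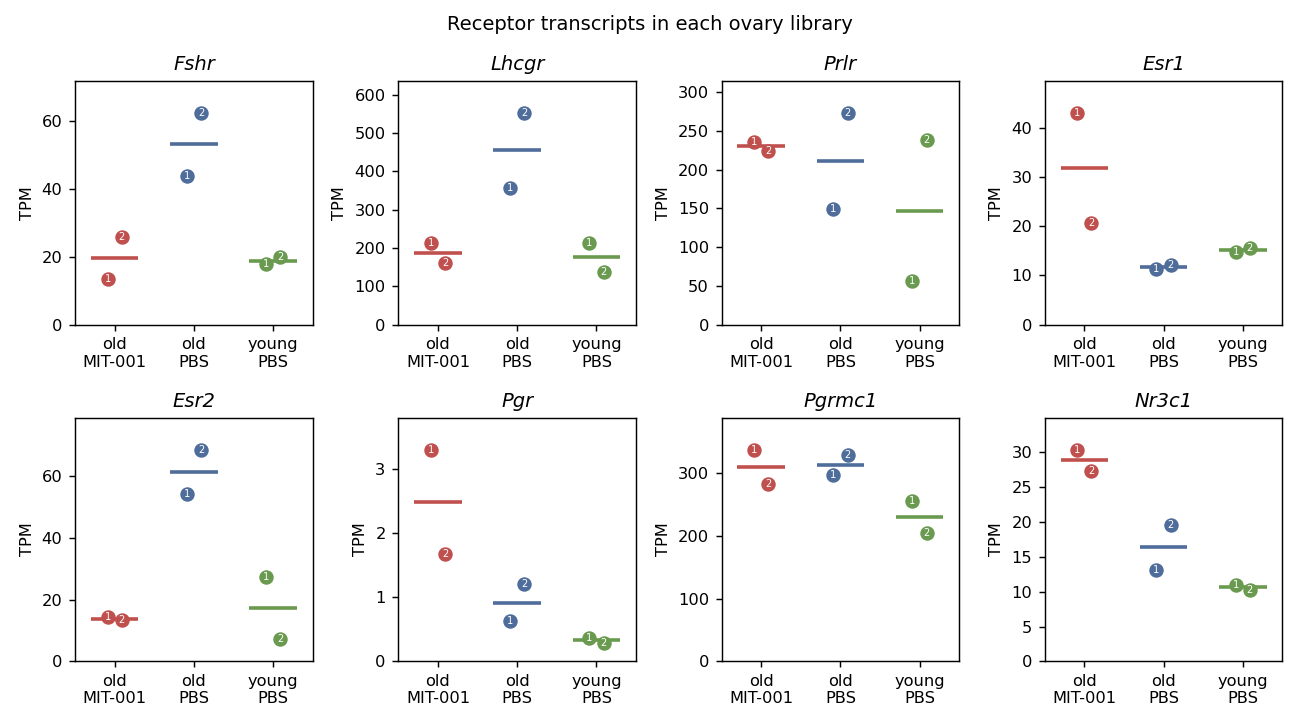
TPM of each receptor (vertical axes, from 0, with a scale of their own) in the 6 libraries. Points are libraries, with the replicate number inside, and bars are means of 2. Fshr, Lhcgr and Esr2 are highest in both libraries labelled old PBS, and Esr1, Pgr and Nr3c1 in both labelled old MIT-001.

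On the TPM scale Pgrmc1, Prlr and Lhcgr were the most abundant receptors and Pgr the least. The medians over the 6 libraries were 289 TPM for Pgrmc1, 229.8 for Prlr, 214 for Lhcgr, 22.8 for Fshr, 20.8 for Esr2, 16.3 for Nr3c1, 15.2 for Esr1 and 0.914 for Pgr. Fshr, Esr2, Nr3c1 and Esr1 are neighbours in that order whose libraries overlap, as are Pgrmc1, Prlr and Lhcgr. The ratio of the highest to the lowest library ran from 1.65 for Pgrmc1 to 9.54 for Esr2 and 11.3 for Pgr.

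Fshr, the receptor through which FSH drives follicle growth, was at 13.4 and 25.8 TPM under the old MIT-001 label, 43.7 and 62.3 TPM under the old PBS label and 17.7 and 19.9 TPM under the young PBS label. Both old PBS values lay above the other 4, while the old MIT-001 values lay on either side of the young PBS values. The means were 19.6 ± 8.76 TPM for old MIT-001, 53.0 ± 13.1 TPM for old PBS and 18.8 ± 1.51 TPM for young PBS (SD, n = 2 each). Old MIT-001 against old PBS gave a log2 fold change of -1.44 ± 0.36 (SE, 95% confidence interval -2.31 to -0.57, adjusted p 0.217), on the log2(TPM + 1) scale used for every fold change here. Old PBS against young PBS gave 1.43 ± 0.36 (0.56 to 2.30, adjusted p 0.212). Between old MIT-001 and young PBS the difference was -0.01, with an interval of -0.88 to 0.86 that holds differences of nearly 1 log2 unit either way.

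Lhcgr, the receptor for luteinizing hormone, was more abundant in TPM than Fshr in every library. It was at 214 and 160.2 TPM under the old MIT-001 label, 357 and 553 TPM under the old PBS label and 214 and 137 TPM under the young PBS label. As for Fshr, both old PBS libraries were above the other 4, and old MIT-001 and young PBS overlapped. The log2 fold changes were -1.26 ± 0.34 (interval -2.08 to -0.43, adjusted p 0.251) for old MIT-001 against old PBS and 1.37 ± 0.34 (0.54 to 2.20, adjusted p 0.212) for old PBS against young PBS. Old MIT-001 against young PBS gave 0.11 (interval -0.71 to 0.94), and this sign turned with FPKM and with median centring. The Lhcgr to Fshr ratio, which no scaling of a library can move, was 16.0 and 6.22 under the old MIT-001 label, 8.16 and 8.88 under the old PBS label and 12.1 and 6.89 under the young PBS label. These ratios overlapped between all groups.

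Genes that FSH is known to induce in granulosa cells were set beside Fshr. Of 10 such genes, 9 had a negative fold change and 0 passed for old MIT-001 against old PBS, with a median log2 fold change of -1.44 against 0.03 over all genes. Old PBS against young PBS gave 9 positive fold changes, where 68.1% of all genes had one. In that comparison 1 gene was past the test and the median was 1.48 against 0.23 over all genes. The gene past the test was Inhba, which encodes the activin A subunit, with a log2 fold change of 4.44 ± 0.35 (adjusted p 0.0433). With only the 4 libraries compared in the fit, no gene passed in that comparison, Inhba included.

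Cyp19a1, the aromatase that makes estrogen, was at 17.1 and 33.4 TPM under the old MIT-001 label, 58.2 and 96.7 TPM under the old PBS label and 5.85 and 18.6 TPM under the young PBS label. The old PBS values were the highest, but neither comparison passed (log2 fold change -1.61 ± 0.58, adjusted p 0.358, for old MIT-001 against old PBS and 2.71 ± 0.58, adjusted p 0.21, for old PBS against young PBS). Inhbb, the activin B subunit, was at 82.6 and 105 TPM under the old MIT-001 label, 401 and 418 TPM under the old PBS label and 126 and 125 TPM under the young PBS label, with an adjusted p of 0.0636 for old MIT-001 against old PBS. Kitl, the KIT ligand, went the other way for old MIT-001 against old PBS, with 23.8 and 16.9 TPM under the old MIT-001 label, against 3.44 and 7.89 TPM under the old PBS label (a log2 difference of 1.75 ± 0.40, adjusted p 0.200).

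Downstream of both receptors, the 19 genes of cyclic AMP signalling had medians of -0.01 for old MIT-001 against old PBS and 0.39 for old PBS against young PBS, against 0.03 and 0.23 over all genes, with 0 past the test. Prkar2b, the regulatory subunit RII-beta of protein kinase A, had the smallest p of this list in both. It was at 173 and 295 TPM under the old MIT-001 label, 516 and 696 TPM under the old PBS label and 117 and 63.8 TPM under the young PBS label, with adjusted p of 0.261 for old MIT-001 against old PBS and 0.127 for old PBS against young PBS. The 3 groups did not overlap for Prkar2b, and old MIT-001 lay between the other 2.

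**Figure D3:**
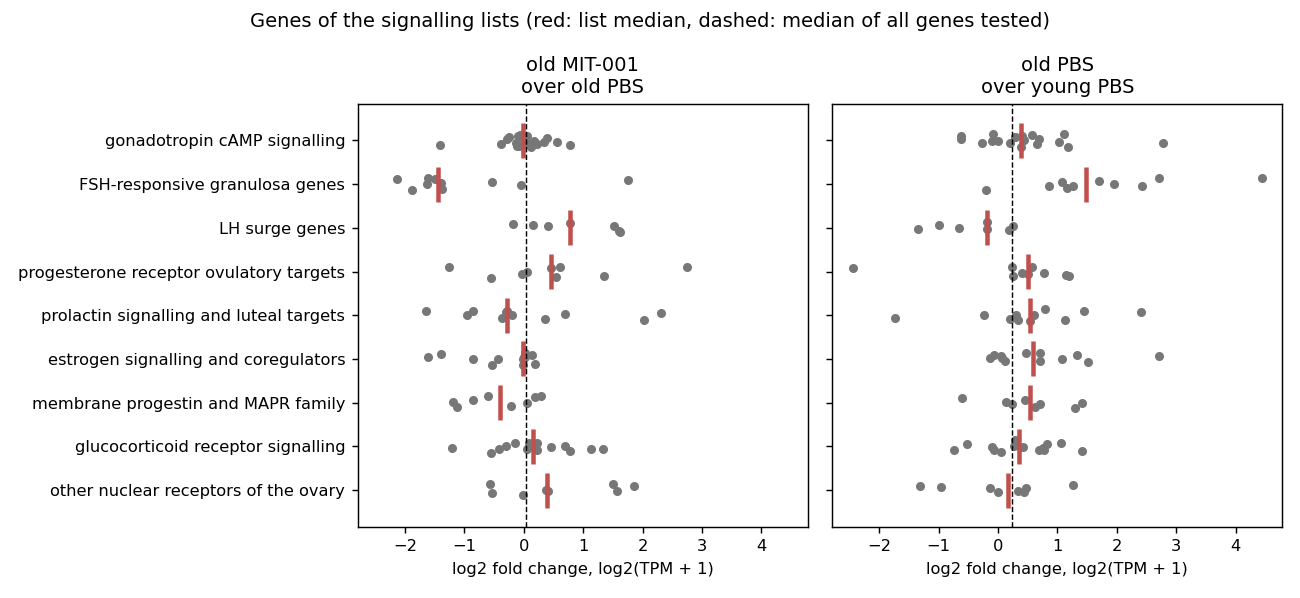
Log2 fold changes of the genes of 9 signalling lists (grey points, 1 per gene) for old MIT-001 over old PBS and old PBS over young PBS. Red bars are list medians and the dashed line is the median of all genes tested. The FSH-responsive list has its median at -1.44 and 1.48.

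Of 9 genes of the luteinizing hormone surge, 7 were tested and 0 passed, with medians of 0.78 for old MIT-001 against old PBS and -0.19 for old PBS against young PBS. Ptgs2, the prostaglandin synthase of ovulation, was at 2.76 and 3.25 TPM under the old MIT-001 label, 0.348 and 0.292 TPM under the old PBS label and 4.18 and 0.339 TPM under the young PBS label. Areg, an EGF-like factor that relays the surge, was at 2.46 and 3.48 TPM under the old MIT-001 label, 0.432 and 0.318 TPM under the old PBS label and 7.95 and 0.355 TPM under the young PBS label. Tnfaip6, which builds the matrix of the expanding cumulus, was at 9.07 and 11.3 TPM under the old MIT-001 label, 3.34 and 2.05 TPM under the old PBS label and 8.91 and 2.31 TPM under the young PBS label. For Ptgs2 and Areg replicate 1 labelled young PBS was the highest library and replicate 2 was near the old PBS values.

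**Figure D4:**
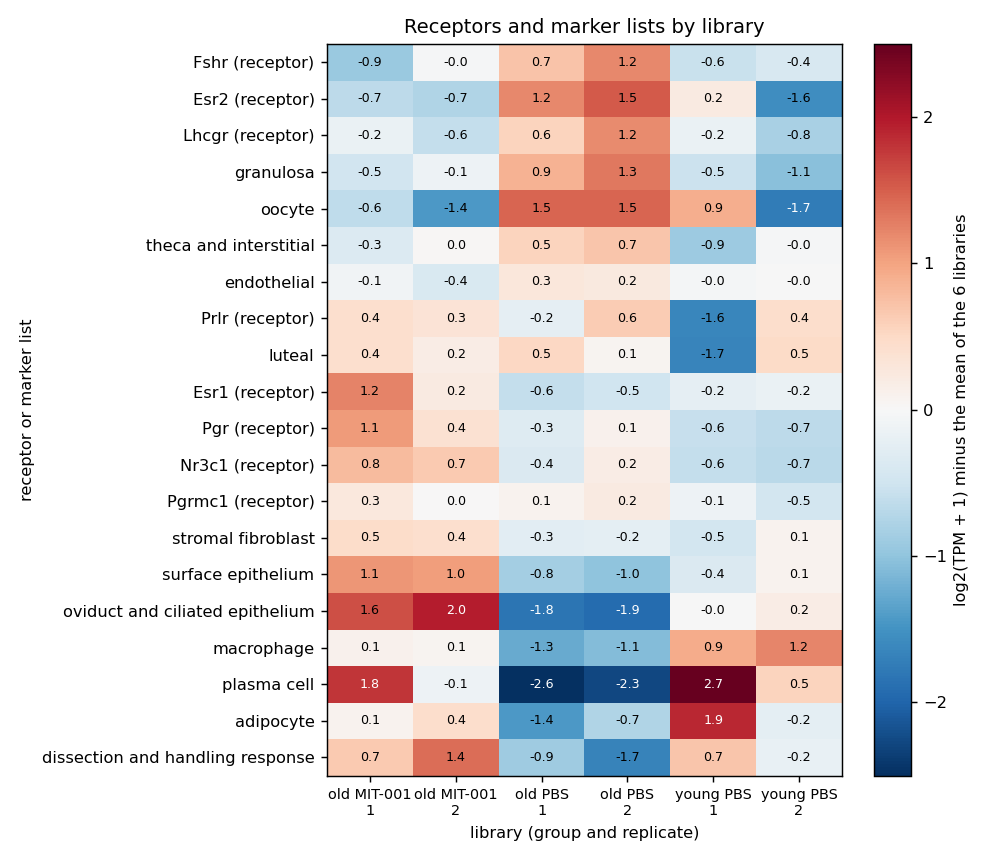
Levels of the 8 receptors and of 12 marker lists (rows) in the 6 libraries (columns), as log2(TPM + 1), or its mean over a list, minus the mean of the 6 libraries. Red is above and blue below that mean, and the number is printed in each cell. Fshr, Esr2 and Lhcgr are red with the granulosa list in the old PBS columns, and Prlr and the luteal list are lowest in replicate 1 labelled young PBS.

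Markers of the receptors' own cells moved with these groups. Of the 10 granulosa markers, 8 are also in the FSH-responsive list, so the lists are not separate evidence. The 10 summed to 2648 and 3828 TPM under the old MIT-001 label, 7481 and 9418 TPM under the old PBS label and 3414 and 3035 TPM under the young PBS label. All 10 were lower for old MIT-001 against old PBS (median -1.44, 0 past the test) and all 10 higher for old PBS against young PBS (median 1.53, 1 past the test), and none was at 0 in any library. In bulk tissue, fewer cells of a type and less RNA per cell cannot be told apart. Fshr minus the mean of the granulosa list, both as log2(TPM + 1), was -3.07 and -2.52 under the old MIT-001 label, -2.77 and -2.72 under the old PBS label and -2.63 and -1.95 under the young PBS label. Set against that list, the old PBS values thus lay inside the range of the old MIT-001 values, whereas the Fshr TPM did not overlap. Both old PBS values also lay below both young PBS values, the opposite of the Fshr TPM in that comparison.

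For Lhcgr the 6 theca and interstitial markers summed to 22642 and 21355 TPM under the old MIT-001 label, 32741 and 30364 TPM under the old PBS label and 19519.6 and 38642 TPM under the young PBS label. Cyp11a1, Hsd3b1 and Star made up most of these sums. Summed TPM overlapped between old PBS and young PBS, but the mean log2(TPM + 1) of the list did not, at 8.59 and 8.96 under the old MIT-001 label, 9.47 and 9.61 under the old PBS label and 8.02 and 8.89 under the young PBS label. For old MIT-001 against old PBS all 6 were lower, 4 without overlap (24.2% of all genes). For old PBS against young PBS 5 were higher, 3 without overlap (38.1%), and 1 was lower. Cyp17a1 (490 and 673 TPM) and Insl3 (16.4 and 22.0 TPM) were highest in both libraries labelled old PBS. Lhcgr minus the mean of the list was -0.84 and -1.63 under the old MIT-001 label, -0.99 and -0.50 under the old PBS label and -0.27 and -1.78 under the young PBS label. Relative to the theca list, old PBS lay between the 2 young PBS values and overlapped old MIT-001. Lhcgr minus the mean of the granulosa list was 0.84 and 0.08 under the old MIT-001 label, 0.24 and 0.41 under the old PBS label and 0.89 and 0.77 under the young PBS label. Relative to the granulosa list, old PBS lay inside the old MIT-001 range and below both young PBS values, the opposite of the Lhcgr TPM in that comparison. Lhcgr minus the mean of the luteal list was -3.22 and -3.40 under the old MIT-001 label, -2.58 and -1.50 under the old PBS label and -1.14 and -3.91 under the young PBS label. Relative to the luteal list, both old PBS values were above both old MIT-001 values, as for the Lhcgr TPM, and lay between the young PBS values. The part of theca, granulosa and luteal content in the Lhcgr difference was not tested.

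Prlr, the prolactin receptor, was at 236 and 224 TPM under the old MIT-001 label, 149.6 and 273 TPM under the old PBS label and 56.2 and 238 TPM under the young PBS label. Replicate 1 labelled young PBS was far below the other 5 libraries, and all groups overlapped. The log2 fold changes were 0.18 ± 0.66 for old MIT-001 against old PBS (interval -1.44 to 1.80, adjusted p 0.975), 0.80 ± 0.66 for old PBS against young PBS (-0.82 to 2.42, adjusted p 0.565) and 0.98 ± 0.66 between old MIT-001 and young PBS (-0.64 to 2.60, adjusted p 0.517). Without replicate 1 labelled young PBS the last 2 were -0.23 and -0.05, and without replicate 2 they were 1.83 and 2.01. The files give 1 value per gene, so the long and short forms of the receptor were not separated.

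The same library had the lowest values of the luteal markers Akr1c18, Ptgfr, Sfrp4 and Scarb1, but not of the luteal marker Hsd17b7. Hsd17b7 was at 292 TPM there, above replicate 2 labelled young PBS (91.7 TPM) and replicate 2 labelled old MIT-001 (229.5 TPM). The 5 luteal markers, 4 of which are also in the prolactin list below, summed to 18747 and 19645 TPM under the old MIT-001 label, 16232 and 10881 TPM under the old PBS label and 3664 and 27496 TPM under the young PBS label. Akr1c18, the enzyme that breaks down progesterone and that prolactin is known to repress, was at 7777 and 13328 TPM under the old MIT-001 label, 3597 and 1164 TPM under the old PBS label and 425 and 13608 TPM under the young PBS label. Prlr minus the mean of the luteal list was -3.08 and -2.92 under the old MIT-001 label, -3.83 and -2.51 under the old PBS label and -3.06 and -3.12 under the young PBS label. The 2 young PBS values of that difference were close, while their Prlr TPM was not, and the part of luteal content was not tested.

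Of 11 genes of prolactin signalling and its luteal targets, 0 passed in any comparison, with medians of -0.27 for old MIT-001 against old PBS and 0.54 for old PBS against young PBS. Stat5a and Stat5b, the transcription factors that carry the signal, had adjusted p of 0.598 or more in all 3 comparisons. Socs2, a feedback inhibitor induced by STAT5, was at 205 and 251 TPM under the old MIT-001 label, 241 and 327 TPM under the old PBS label and 147 and 71.5 TPM under the young PBS label. Cish, another such inhibitor, was at 45.7 and 31.2 TPM under the old MIT-001 label, 75.0 and 73.5 TPM under the old PBS label and 50.3 and 22.3 TPM under the young PBS label. Both were lowest in replicate 2 labelled young PBS, the young library in which Prlr was high. Jak2, the receptor's kinase, was at 40.6 and 31.9 TPM under the old MIT-001 label, 17.8 and 27.1 TPM under the old PBS label and 18.2 and 11.9 TPM under the young PBS label, with the smallest adjusted p of the list, 0.161 for old MIT-001 against young PBS. Hsd17b7, a luteal enzyme that also binds the prolactin receptor, was at 339 and 229.5 TPM under the old MIT-001 label, 806 and 952 TPM under the old PBS label and 292 and 91.7 TPM under the young PBS label (adjusted p 0.318 for old MIT-001 against old PBS and 0.21 for old PBS against young PBS).

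**Figure D5:**
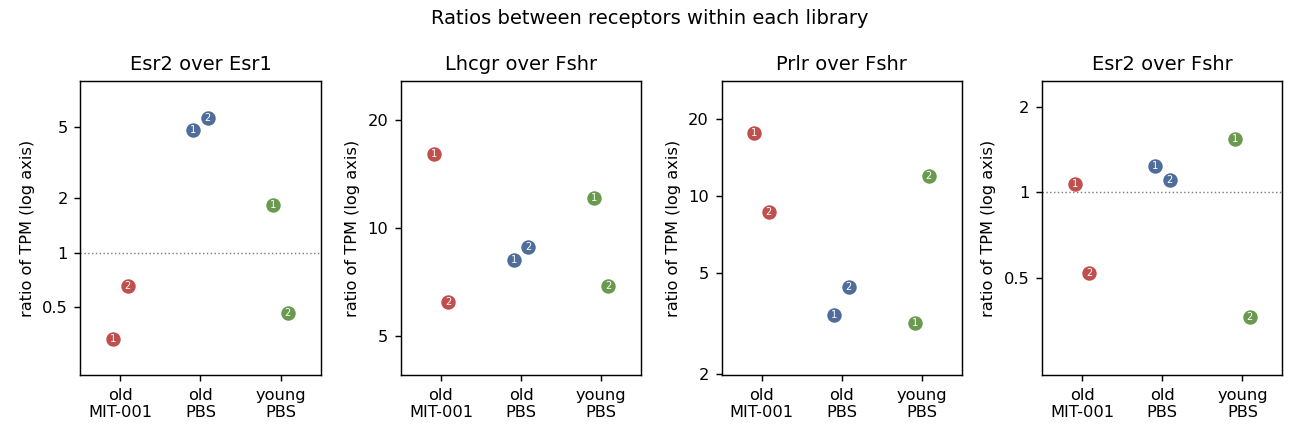
Ratios of the TPM of 2 receptors within each library (log axes), by group, with the replicate number inside each point. Esr2 over Esr1 is above 1 in both libraries labelled old PBS and below 1 in both labelled old MIT-001, while Lhcgr over Fshr overlaps between all groups. Esr2 over Fshr is higher in both libraries labelled old PBS than in both labelled old MIT-001, and the young PBS libraries lie outside the other 4.

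Esr2, the granulosa estrogen receptor, was at 14.3 and 13.3 TPM under the old MIT-001 label, 54.2 and 68.6 TPM under the old PBS label and 27.3 and 7.19 TPM under the young PBS label. The old PBS libraries were above the other 4, and both old MIT-001 libraries lay between the 2 young PBS libraries. Its log2 fold changes were the largest of the 8 receptors in size for old MIT-001 against old PBS and for old PBS against young PBS, at -2.06 ± 0.56 (interval -3.43 to -0.70, adjusted p 0.252) and 2.02 ± 0.56 (0.66 to 3.38, adjusted p 0.223). With only the 4 libraries labelled old MIT-001 and old PBS fitted, the same -2.06 had an SE of 0.18 and passed at an adjusted p of 0.0322. It also passed without replicate 1 or replicate 2 labelled young PBS (adjusted p 0.0326 and 0.0323), and not without any 1 of the 4 libraries compared, where adjusted p reached 0.85. Old PBS against young PBS passed without replicate 1 labelled young PBS, at 2.92 ± 0.23 (adjusted p 0.0367), and was 1.13 without replicate 2. Esr2 and Lhcgr put the 6 libraries in the same order, from replicate 2 labelled old PBS down to replicate 2 labelled young PBS.

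Esr1, the estrogen receptor of theca, stroma and epithelium, had its 2 highest values under the old MIT-001 label. It was at 43.0 and 20.6 TPM under the old MIT-001 label, 11.3 and 12.2 TPM under the old PBS label and 14.8 and 15.6 TPM under the young PBS label. The 3 groups did not overlap, but the 2 old MIT-001 libraries differed from each other more than the other groups did. Old MIT-001 against old PBS gave 1.27 ± 0.36 (interval 0.39 to 2.16, adjusted p 0.266), and 0.76 without replicate 1 labelled old MIT-001. Old MIT-001 against young PBS gave 0.93 ± 0.36 (0.04 to 1.82, adjusted p 0.26), and old PBS against young PBS -0.35 ± 0.36 (-1.23 to 0.54, adjusted p 0.662).

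The ratio of the 2 estrogen receptors was read within each library. Esr2 over Esr1 was 0.332 and 0.648 under the old MIT-001 label, 4.79 and 5.62 under the old PBS label and 1.84 and 0.462 under the young PBS label. Old PBS lay above the other 4 libraries, and old MIT-001 and young PBS overlapped. With 2 libraries a group the ratio is given without a test. Esr2 over Fshr was 1.07 and 0.518 under the old MIT-001 label, 1.24 and 1.10 under the old PBS label and 1.54 and 0.362 under the young PBS label. Both old PBS values lay above both old MIT-001 values, and all 4 lay between the 2 young PBS values.

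Marker lists moved with the estrogen receptors too. Esr2 minus the mean of the granulosa list was -2.98 and -3.41 under the old MIT-001 label, -2.46 and -2.58 under the old PBS label and -2.03 and -3.30 under the young PBS label. Between old MIT-001 and old PBS this distance did not overlap, whereas the old PBS values lay between those of the 2 young PBS libraries. Surface epithelium markers summed to 615 and 649.6 TPM under the old MIT-001 label, 163 and 158 TPM under the old PBS label and 246 and 352 TPM under the young PBS label. All 7 were higher for old MIT-001 against old PBS (median 2.07, 1 past the test). Stromal markers summed to 1956 and 1762 TPM under the old MIT-001 label, 1161 and 1112 TPM under the old PBS label and 1038 and 1436 TPM under the young PBS label. Esr1 minus the mean of the surface epithelium list was -0.43 and -1.40 under the old MIT-001 label, -0.32 and -0.07 under the old PBS label and -0.43 and -0.82 under the young PBS label. Relative to that list, both old MIT-001 values were below both old PBS values, the opposite of the Esr1 TPM. Esr1 minus the mean of the stromal list was -2.52 and -3.51 under the old MIT-001 label, -3.64 and -3.56 under the old PBS label and -3.07 and -3.57 under the young PBS label. There both old MIT-001 values were above both old PBS values, but for replicate 2 only narrowly (-3.51 against -3.56). The part of epithelium and stroma in the Esr1 difference was not tested.

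Of 13 genes of estrogen signalling, 12 were tested and 0 passed, with medians of -0.01 for old MIT-001 against old PBS and 0.59 for old PBS against young PBS. Greb1, a coactivator induced by estrogen, was at 156 and 191 TPM under the old MIT-001 label, 326 and 303 TPM under the old PBS label and 101 and 119.9 TPM under the young PBS label. The 3 groups did not overlap for Greb1, with log2 fold changes of -0.86 ± 0.21 (adjusted p 0.222) for old MIT-001 against old PBS and 1.51 ± 0.21 (adjusted p 0.127) for old PBS against young PBS. Hsd17b1, which makes estradiol in granulosa cells, was at 127 and 136 TPM under the old MIT-001 label, 336 and 355 TPM under the old PBS label and 142 and 187 TPM under the young PBS label (adjusted p 0.104 and 0.208 for old MIT-001 against old PBS and old PBS against young PBS). Nrip1, a corepressor and coactivator of estrogen receptors, was at 25.8 and 32.0 TPM under the old MIT-001 label, 20.7 and 40.2 TPM under the old PBS label and 9.78 and 12.2 TPM under the young PBS label. Gper1, the membrane estrogen receptor, was between 0.511 and 1.40 TPM in all 6 libraries.

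Pgr, the nuclear progesterone receptor, was the least abundant of the 8. It was at 3.30 and 1.67 TPM under the old MIT-001 label, 0.625 and 1.20 TPM under the old PBS label and 0.367 and 0.293 TPM under the young PBS label. The 3 groups did not overlap. The log2 fold changes were 0.84 ± 0.37 (interval -0.06 to 1.74, adjusted p 0.457) for old MIT-001 against old PBS, 0.51 ± 0.37 (-0.39 to 1.41, adjusted p 0.505) for old PBS against young PBS and 1.35 ± 0.37 (0.45 to 2.25, adjusted p 0.162) for old MIT-001 against young PBS. At these low values the log2(TPM + 1) scale understates the differences, and with a pseudocount of 0.1 the third was 2.52. Oviduct and ciliated epithelium, where Pgr is also known to be expressed, had markers summing to 749.8 and 414 TPM under the old MIT-001 label, 32.0 and 36.4 TPM under the old PBS label and 104 and 191 TPM under the young PBS label. Foxj1, the defining gene of ciliated cells, was at 0.867 and 67.0 TPM under the old MIT-001 label, 1.40 and 1.07 TPM under the old PBS label and 4.08 and 3.08 TPM under the young PBS label. Of the 2 libraries labelled old MIT-001, Pgr was higher in replicate 1, as were Ovgp1, Pax8, Epcam and Wfdc2, the other 4 of the 5 markers, while Foxj1 was higher in replicate 2. Pgr minus the mean of the oviduct list was -3.36 and -4.39 under the old MIT-001 label, -1.32 and -0.78 under the old PBS label and -3.40 and -3.66 under the young PBS label. Relative to that list, both old MIT-001 values were below both old PBS values, the opposite of the Pgr TPM. The same held relative to the surface epithelium list (-3.78 and -4.41 against -3.24 and -2.65). Relative to the stromal list the 2 groups overlapped (-5.88 and -6.53 against -6.56 and -6.15). Since this scale compresses low values such as those of Pgr, the direction of these distances rests largely on the lists. The part of oviduct tissue in the Pgr difference was not tested.

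Of 10 genes that PGR is known to control at ovulation, 9 were tested and 0 passed, with medians of 0.46 for old MIT-001 against old PBS, 0.50 for old PBS against young PBS and 0.83 between old MIT-001 and young PBS. Edn2, which makes the follicle wall contract, was at 15.8 and 8.29 TPM under the old MIT-001 label, 5.79 and 2.51 TPM under the old PBS label and 2.09 and 2.87 TPM under the young PBS label (adjusted p 0.336 for old MIT-001 against old PBS and 0.161 between old MIT-001 and young PBS). Adamts1, a protease of follicle rupture, was at 33.2 and 40.6 TPM under the old MIT-001 label, 25.7 and 27.2 TPM under the old PBS label and 31.3 and 12.4 TPM under the young PBS label. Pparg, another target, had the opposite sign for old MIT-001 against old PBS, with 22.3 and 28.9 TPM under the old MIT-001 label, against 62.5 and 61.4 TPM under the old PBS label (a log2 difference of -1.25 ± 0.27, adjusted p 0.177).

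Pgrmc1 was the most even of the 8. It was at 337 and 282 TPM under the old MIT-001 label, 296 and 328 TPM under the old PBS label and 255 and 205 TPM under the young PBS label. The old MIT-001 and old PBS libraries overlapped, and both groups lay above the young PBS libraries. The log2 fold change for old MIT-001 against old PBS was -0.02 ± 0.23 (interval -0.57 to 0.54), with a sign that turned after quantile normalization. Old PBS against young PBS gave 0.45 ± 0.23 (-0.11 to 1.00, adjusted p 0.353) and old MIT-001 against young PBS gave 0.43 ± 0.23 (-0.12 to 0.98, adjusted p 0.394). After median centring these 2 fold changes were 0.12 and 0.015.

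Among 8 relatives and membrane progestin receptors, 0 passed, with medians of -0.41 for old MIT-001 against old PBS and 0.54 for old PBS against young PBS. Pgrmc2, the close relative of Pgrmc1, was between 53.1 and 65.2 TPM in all 6 libraries. Paqr8, the membrane progestin receptor beta, was at 9.77 and 8.49 TPM under the old MIT-001 label, 18.4 and 24.2 TPM under the old PBS label and 6.91 and 9.17 TPM under the young PBS label. Its old PBS values were the highest of the 3 groups, as for Fshr, with adjusted p of 0.222 and 0.21 in the 2 comparisons that hold old PBS. Paqr7, the alpha receptor, was between 32.3 and 78.2 TPM, both in libraries labelled young PBS.

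Nr3c1, the glucocorticoid receptor, was at 30.3 and 27.3 TPM under the old MIT-001 label, 13.1 and 19.6 TPM under the old PBS label and 11.0 and 10.3 TPM under the young PBS label. The 3 groups did not overlap, and old PBS lay between the other 2. Old MIT-001 against young PBS gave 1.36 ± 0.27 (interval 0.70 to 2.02), with an unadjusted p of 0.00223 that ranked 168 of 16473 genes in limma's test and an adjusted p of 0.161. This value kept its sign in the 15 alternatives, between 0.95 and 1.43. Old MIT-001 against old PBS gave 0.81 ± 0.27 (0.15 to 1.47, adjusted p 0.325) and old PBS against young PBS gave 0.55 ± 0.27 (-0.11 to 1.21, adjusted p 0.337).

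The other genes of glucocorticoid signalling did not share one pattern over the groups, though most were higher in old MIT-001 than in young PBS. In that comparison 13 of 14 had a positive fold change, where 69.3% of all genes had one. For old MIT-001 against old PBS it was 9 of 14 (53.5%), and for old PBS against young PBS 10 of 14 (68.1%). Of 14 genes 0 passed, with medians of 0.15 for old MIT-001 against old PBS, 0.36 for old PBS against young PBS and 0.49 between old MIT-001 and young PBS, against 0.03, 0.23 and 0.24 over all genes. Fkbp5, a chaperone gene strongly induced by glucocorticoids, was at 529 and 571 TPM under the old MIT-001 label, 726 and 629 TPM under the old PBS label and 525 and 602 TPM under the young PBS label. Tsc22d3, another induced gene, was between 46.0 and 73.4 TPM in all 6 libraries. Klf9, a transcription factor induced by the receptor, was at 34.0 and 36.4 TPM under the old MIT-001 label, 19.8 and 32.0 TPM under the old PBS label and 14.3 and 9.28 TPM under the young PBS label, the order of Nr3c1 (adjusted p 0.161 for old MIT-001 against young PBS). Hsd11b2, the enzyme that inactivates glucocorticoids, was at 33.2 and 45.6 TPM under the old MIT-001 label, 78.6 and 105 TPM under the old PBS label and 35.0 and 32.0 TPM under the young PBS label. Its old PBS values were the highest, with adjusted p of 0.17 for old MIT-001 against old PBS and 0.171 for old PBS against young PBS.

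Stromal and macrophage markers were read beside Nr3c1, which those cells also express. Nr3c1 minus the mean of the 6 stromal markers was -3.01 and -3.12 under the old MIT-001 label, -3.45 and -2.92 under the old PBS label and -3.48 and -4.12 under the young PBS label. The 6 macrophage markers summed to 352 and 329 TPM under the old MIT-001 label, 127 and 146 TPM under the old PBS label and 789.6 and 785 TPM under the young PBS label. They were highest in the young PBS libraries, where Nr3c1 was lowest. Nr3c1 minus the mean of the macrophage list was -0.55 and -0.65 under the old MIT-001 label, -0.35 and 0.03 under the old PBS label and -2.76 and -3.15 under the young PBS label. Relative to the stromal list old MIT-001 and old PBS overlapped. Relative to the macrophage list both old MIT-001 values were below both old PBS values, the opposite of the Nr3c1 TPM. With each of these lists, the old MIT-001 and old PBS values all lay above both young PBS values, as for the Nr3c1 TPM. For the stromal list the gap was narrow, with replicate 1 at -3.45 under the old PBS label and -3.48 under the young PBS label. For the macrophage list this order was fixed beforehand, since that list was highest where Nr3c1 was lowest. It therefore tells nothing more about Nr3c1. The 6 immediate early genes listed for tissue handling summed to 1372 and 2259 TPM under the old MIT-001 label, 558 and 314 TPM under the old PBS label and 1338 and 759 TPM under the young PBS label. The part of these cells and of handling in the Nr3c1 difference was not tested.

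Related nuclear receptors were set beside the 8, and of 9 listed 8 were tested and 0 passed. Nr3c2, the mineralocorticoid receptor, was at 5.56 and 3.23 TPM under the old MIT-001 label, 0.705 and 1.03 TPM under the old PBS label and 1.86 and 3.53 TPM under the young PBS label (adjusted p 0.236 for old MIT-001 against old PBS). Nr4a1, an immediate early receptor gene, was at 209 and 311 TPM under the old MIT-001 label, 85.9 and 56.6 TPM under the old PBS label and 197 and 156 TPM under the young PBS label, with the smallest adjusted p of the list, 0.114 for old MIT-001 against old PBS.

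For each receptor the 3 genes most like it over the 6 libraries were taken, by Pearson's r of log2(TPM + 1) among the protein-coding genes of at least 5 TPM on average (10917, or 10918 for Pgr). Clone names and predicted genes were left out, and since the 6 libraries fall into 3 groups r is given as a description. Fshr was closest to Mrps2 and Eef1akmt1 (0.99 each), followed by Inha, the inhibin alpha subunit (0.99). Lhcgr was closest to Wdr76, Rnase1 and Itga2 (0.99 each), and Prlr to Ubr3, Dsp and Helz (0.99 each). Esr1 was closest to Ifi203 (0.99), Plppr3 and Calb1 (0.98 each), and Esr2 to Mrpl45, Kcnj16 and Efr3b (0.99 each). Pgr was closest to Golga1, Malt1 and Arid4a (0.99 each), Pgrmc1 to Mettl6 (0.998), Plekha7 (0.996) and Cep57l1 (0.995), and Nr3c1 to Fnbp1l (0.998), Cd2ap (0.997) and Tsc22d2 (0.996). Among these, Inha belongs to the FSH-responsive list and was at 1399 and 2235 TPM under the old MIT-001 label, 4145 and 5098 TPM under the old PBS label and 2048 and 2051 TPM under the young PBS label.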

How the data were processed

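The submitters' processing notes name Trimmomatic, HISAT2, StringTie and mm10, with no versions, and the sources used here do not state the annotation or strand setting. Per the file headers each deposited file holds TPM, FPKM and coverage for every gene. The authors' TPM values, length-scaled with a constant total, were the measurement, the deposited FPKM values an alternative, and the deposited coverage signal served only to estimate depth. Symbols were matched on Gene ID to RefSeq GRCm38.p6 (45683 or 45684 rows per library, 98 unmatched) and values of 1 symbol were summed.

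The 16473 genes with at least 1 TPM in at least 2 libraries were analysed as log2(TPM + 1) with limma 3.58.1 (R 4.3.3), with 1 mean per group over 6 libraries, an intensity trend (3 residual and 3.12 prior degrees of freedom), two-sided tests and Benjamini-Hochberg adjustment over all genes, called at 0.05. The procedure was tested on simulated data. Members and lists were chosen with earlier results of these data known. Named are the receptors, the list genes of smallest p and those with a direct part in a receptor's signalling.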

Additional observations from a re-analysis of the deposited data

How the results depend on the processing

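Counts of called genes depended on the settings. For old PBS against young PBS the 6 calls became 1 with no filter, without the intensity trend or with the replicate block, 15 with median centring, 17 with quantile normalization and 0 with only the 4 libraries compared, and 0 to 948 when 1 library was left out. Between old MIT-001 and old PBS, 3 calls became 0 with no filter or the replicate block, 1 with FPKM or median centring and 356 with only the 4 libraries compared, and 0 to 372 with 1 library left out. For old MIT-001 against young PBS the count was 0 throughout.

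The titles number the libraries 1 and 2 in each group. Differences between the numbers correlated across genes at 0.18, 0.24 and 0.01 between pairs of groups, so the numbers were not taken to pair libraries, and the block changed no receptor's call.

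Over 8 receptors, 3 comparisons and up to 15 alternatives, 339 of 357 values kept sign and call, 4 (all Esr2, given above) newly passed and 14 turned sign. Turned signs concerned values near 0 or Prlr. With 1 library left out, Prlr ran from -0.23 to 1.83 for old PBS against young PBS, from -0.25 to 0.62 for old MIT-001 against old PBS and from -0.051 to 2.01 for old MIT-001 against young PBS. In that last comparison Fshr ran from -0.46 to 0.44, Lhcgr from -0.21 to 0.44 and Esr2 from -0.93 to 0.85, and Pgrmc1 ran from -0.15 to 0.11 for old MIT-001 against old PBS. Lhcgr for old MIT-001 against young PBS was -0.041 with FPKM and -0.30 with median centring, and Pgrmc1 for old MIT-001 against old PBS was 0.058 with quantile normalization. Pgr left the test with the filter at 5 TPM. Without read counts, the counting error of low genes such as Pgr is unknown.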
